A study of Mus musculus with 18 samples.

Results

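Matrix metalloproteinases (MMPs) are zinc-dependent enzymes that cut collagens and other proteins of the extracellular matrix, and the tissue inhibitors of metalloproteinases (TIMPs) are secreted proteins that block them. Here 10 of these genes were followed in NIH 3T3 cells, a line of mouse embryonic fibroblasts: the MMPs Mmp2, Mmp3, Mmp9, Mmp10, Mmp13, Mmp14 and Mmp24 and the inhibitors Timp1, Timp2 and Timp3. They were taken by gene symbol from a deposited table of 22019 genes, and no measured value entered this rule. The other 17 MMP and TIMP genes of that table, among them Timp4, are given for comparison.

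The study asked how the rigidity of the substrate and the LINC complex, which ties the nucleus to the cytoskeleton, shape gene expression. All cells were doxycycline-inducible stable lines made with a retroviral vector, and doxycycline (1 μg/ml) was present in all groups for the 48 hr they spent on polyacrylamide gels coated with fibronectin. SUN1L cells (SS-HA-Sun1L-KDEL) expressed the lumenal domain of SUN1, which disrupts the LINC complex, while KDEL cells (SS-GFP-KDEL) expressed a GFP retained in the endoplasmic reticulum and had also been enriched by fluorescence sorting. The methods count 3 biological replicates in each of 6 groups, and the libraries are named here by the serial numbers of the laboratory. KDEL cells on 1 kPa gave libraries 4, 16 and 28, KDEL cells on 308 kPa gave 8, 20 and 32, SUN1L cells on 1 kPa gave 3, 15 and 27, and SUN1L cells on 308 kPa gave 7, 19 and 31. KDEL cells on 308 kPa were also treated with an inhibitor of contractility, either 25 μM of Y27 (Y27632, which inhibits the kinase ROCK) in libraries 12, 24 and 36, or 10 μM of blebbistatin (which inhibits myosin II) in libraries 10, 22 and 34. Library 34 is the exception, since its labels name an empty vector in place of SS-GFP-KDEL.

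In fibroblasts, Mmp2 is secreted as an inactive precursor. It is activated at the cell surface by Mmp14, a membrane-bound MMP, with Timp2 as the bridge between them, so that Timp2 serves both as inhibitor and as part of the activating complex. Timp3 binds to the extracellular matrix and inhibits ADAM proteases as well as MMPs, and Timp1 is a secreted inhibitor that binds the precursor of Mmp9. Mmp3 and Mmp10 (stromelysins), Mmp13 (a collagenase) and Mmp9 (a gelatinase) are widely known as genes that are silent in resting cells and switched on by inflammatory signals and growth factors.

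Values are normalized signals on a linear scale with 1 as the lowest value, and 1 read pair was worth between 1.70 and 2.49 signal units. The libraries held an estimated 12670000 to 19460000 read pairs each. The 8 fibroblast markers examined, among them Col1a1, Vim and Pdgfrb, were above the lowest value in all libraries, whereas the epithelial genes Krt18 and Epcam were at it in 18 and 17 libraries. Markers of other cell types were not all absent. Of 6 epithelial markers, 2 were above the lowest value in all 18 libraries, Cdh1 (88.0 to 311) and Krt14 (32 to 872). So were 4 of 5 endothelial markers, Tek (72.3 to 3928), Cdh5 (7.00 to 234), Pecam1 (7.87 to 70.3) and Vwf (5.37 to 50.3). The same held for 3 of 6 leukocyte markers, Cd68 (58.7 to 304), Cd14 (80.5 to 401) and Csf1r (13.0 to 277). The leukocyte genes Emr1, Ptprc and Itgam were at the lowest value in 16, 6 and 6 libraries, and the endothelial gene Kdr in 9. Sun1 ranged from 38452 to 82617 in the 6 SUN1L libraries and from 2785 to 3799 in the other 12, as the labels require. Library 34 carried conflicting labels, with an empty vector and blebbistatin in one field and an empty vector and Y27 in another. In the table no column bears the number 34, and the column taken for this library bears the number 35 under a heading of an empty vector with Y27, which 1 label of library 34 and of no other library matches. It was analysed as blebbistatin beside KDEL libraries. The main differences of the members with the inhibitors are given with and without it, and those of the other gene lists only with it. Libraries 3, 7 and 8, which are 1 from each of 3 groups and all from the lowest serial numbers, stood apart: the mean log2 signal of 22 genes of cell division was 8.49 to 9.05 in them and 11.35 to 12.13 in the other 15. By serial number there were 3 runs, one of libraries 3 to 12, one of 15 to 24 and one of 27 to 36, and each run held 1 library of every group. What a run shares is not stated.

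The members split into abundant genes and genes at or near the lowest value. Timp2, Timp3, Mmp2, Mmp14 and Timp1 were abundant, and the lowest value of any of them in any library was 3029. Mmp9 reached 34.8 at most and Mmp24 reached 20.6. Mmp13 did not exceed 6.13, and Mmp3 and Mmp10 were at the lowest value in all 18 libraries.

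**Figure D1:**
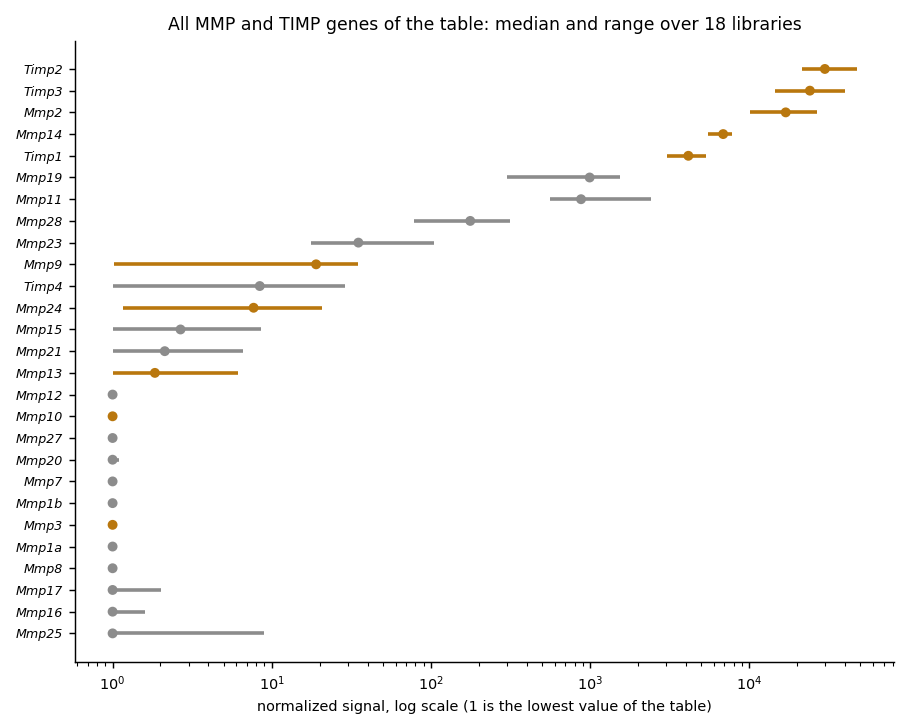
Normalized signal (log scale) of all 27 MMP and TIMP genes of the table, with the median over 18 libraries as a point and the range as a line, and the 10 genes described here in orange. Timp2, Timp3, Mmp2, Mmp14 and Timp1 lead the family, and 8 genes are at the lowest value in all libraries.

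Of the members at or near the lowest value, 3 lie in 1 cluster. In the coordinates of the deposited table, which match the mouse build GRCm38, Mmp13 (ENSMUSG00000050578), Mmp3 (ENSMUSG00000043613) and Mmp10 (ENSMUSG00000047562) belong to the MMP cluster of chr9:7272514-7699585, with Mmp12 and Mmp1b between Mmp13 and Mmp3, and Mmp1a between Mmp3 and Mmp10. Of the 11 genes that the table lists in this interval, 10 are MMPs. Mmp13, which lies at chr9:7272514-7283333 at one edge of the cluster, was above the lowest value in 11 libraries, and Mmp20 was above it in 1 library, at 1.10. The other 9 genes were at the lowest value in all 18 libraries, which corresponds to fewer than 1 read pair in each. In 1 library, a count of 0 allows up to 3 read pairs, or 5.11 to 7.46 signal units depending on the library. Expression below this level could therefore be missed in a given library. The lowest value in all 18 libraries sets a tighter limit on their mean, which was not computed. These limits cover counting error only.

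Sequence just before the start site is printed for these 3 genes and, as a contrast, for 2 abundant members, to show the letters shared by the genes of the cluster. The 120 bases before the RefSeq start (GRCm38.p6) are written 5′ to 3′ on the strand of the gene, all of them the plus strand, with the AP-1 site TGACTCA, the TATA box TATAAA and the GC box GGGCGG in capitals, each searched on both strands. AP-1, a dimer of FOS and JUN proteins, is a textbook activator of inducible MMP genes.
Mmp3 (chr9:7445702-7445821): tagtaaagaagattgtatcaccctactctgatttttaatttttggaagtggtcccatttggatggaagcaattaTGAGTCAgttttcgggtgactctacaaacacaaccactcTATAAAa
Mmp10 (chr9:7502222-7502341): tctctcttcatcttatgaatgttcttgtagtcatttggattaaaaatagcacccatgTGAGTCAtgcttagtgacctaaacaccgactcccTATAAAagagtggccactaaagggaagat
Mmp13 (chr9:7272394-7272513): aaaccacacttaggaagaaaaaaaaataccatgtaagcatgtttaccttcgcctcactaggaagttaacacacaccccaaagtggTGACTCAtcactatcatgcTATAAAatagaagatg
Mmp14 (chr14:54431478-54431597): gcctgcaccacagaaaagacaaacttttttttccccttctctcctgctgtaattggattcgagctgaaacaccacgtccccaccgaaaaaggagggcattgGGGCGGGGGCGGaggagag
Timp1 (chrX:20870046-20870165): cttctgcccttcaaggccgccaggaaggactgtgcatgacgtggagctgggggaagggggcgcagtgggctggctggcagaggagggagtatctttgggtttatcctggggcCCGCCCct

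Promoters were matched for 8 members, all but Mmp2 and Mmp9. Within 250 bases before the start, Mmp3, Mmp10 and Mmp13 each held 1 AP-1 site and 1 TATA box and no GC box. Their AP-1 sites began 46, 63 and 35 bases before the start, and their TATA boxes 7, 29 and 16 bases before it. All distances are counted from the RefSeq start, and whether cells begin transcription there was not tested. Mmp14, Mmp24, Timp1, Timp2 and Timp3 each held at least 1 GC box and neither an AP-1 site nor a TATA box. Of all 32851 promoters in the RefSeq table, 4.46% held the AP-1 site in this window, 12.4% the TATA box and 32.7% the GC box. The GC content of the window was 37.2% to 40.4% in the 3 genes of the cluster and 54.4% to 79.2% in the other 5, with a median of 52.4% over all promoters. These matches describe letters only, and Mmp24, a gene with 3 GC boxes, was at a few read pairs here.

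To compare levels between genes, the signal was divided by the length of the longest GENCODE M1 transcript. Timp2 had the highest median over the 18 libraries with 8076 signal units per kb (range 5785 to 12889), which placed 98.9% of 20440 genes below it. Mmp2 followed with 5596 per kb (3325 to 8797), then Timp3 with 5107 (3066 to 8471) and Timp1 with 4705 (3430 to 6101). Mmp14 had 2647 per kb (2140 to 2995), below the lowest library of each of these 4 genes. Timp2 was above Mmp2 per kb in 18 of 18 libraries, by a factor of 1.22 to 1.84. Mmp2, Timp3 and Timp1, in contrast, overlapped in their levels per kb: Mmp2 was above Timp3 in 14 of 18 libraries, and Timp3 was above Timp1 in 12. Among the low members Mmp9 had a median of 5.99 per kb, Mmp24 1.79 and Mmp13 0.690. The library preparation is not stated to keep the strand, and Timp1 and Timp3 each lie across from a gene on the other strand, Syn1 (median signal 1194) and Syn3 (169), whose reads could not be told apart from theirs where they overlap.

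Across the 8 comparisons made here, 0 of the 8 members that could be tested were called. A call needed a difference of at least 2-fold and an adjusted p (limma, Benjamini-Hochberg) under 0.05. For the interaction it needed a Bonferroni-corrected p under 0.05, without a fold threshold. Mmp3 and Mmp10, at the lowest value throughout, could not be tested. Of the 16021 genes tested, 0.0874% were called for SUN1L against KDEL on 1 kPa, 0.0624% on 308 kPa and 0% in each other comparison. The values below therefore describe levels, their spread and the bounds that the intervals set.

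**Figure D2:**
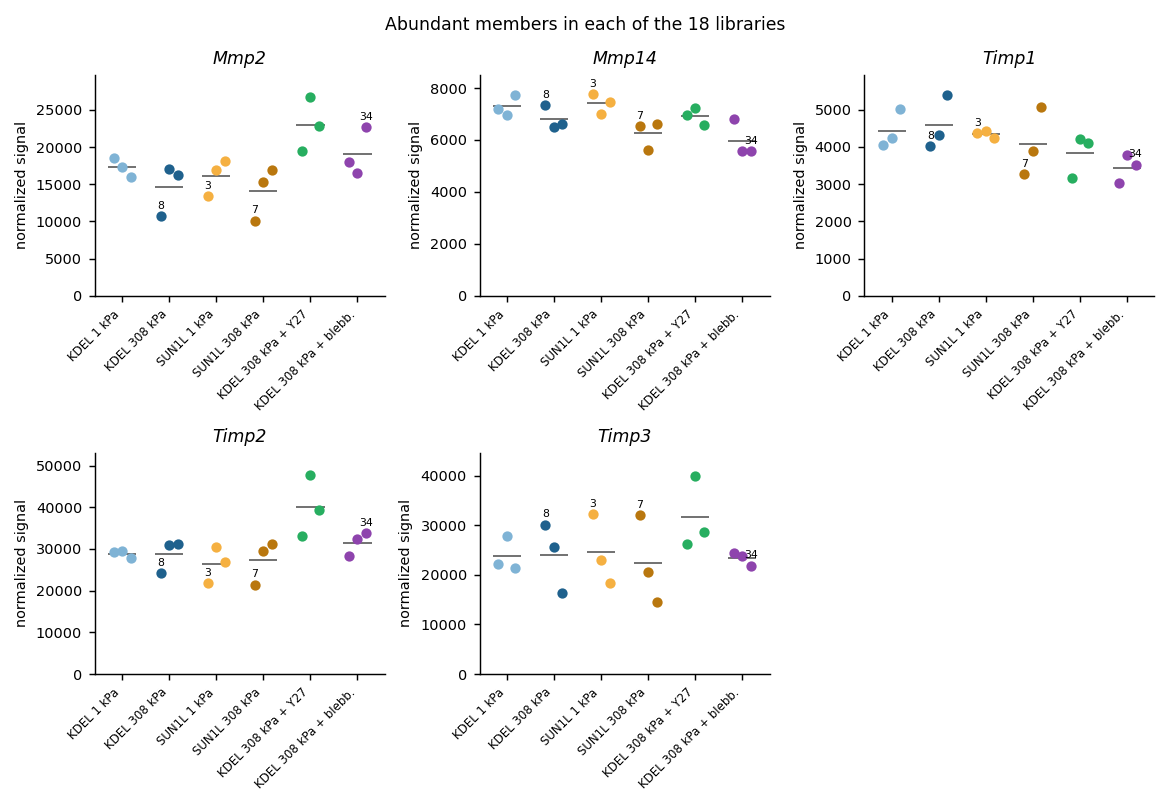
Normalized signal (axes from 0) of the 5 abundant members, with 1 point per library and a bar at the mean of each group of 3. Libraries 3, 7, 8 and 34 are numbered, and the Y27 libraries are the highest group of Mmp2 and Timp2.

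Mmp2 (ENSMUSG00000031740, chr8:92827328-92853417), the gelatinase of fibroblasts, had signals of 18532, 17335 and 16021 in KDEL cells on 1 kPa (libraries 4, 16 and 28). On 308 kPa the KDEL libraries gave 10718, 17034 and 16292 (libraries 8, 20 and 32). SUN1L cells gave 13445, 16970 and 18070 on 1 kPa (libraries 3, 15 and 27) and 10102, 15352 and 16904 on 308 kPa (libraries 7, 19 and 31). The 4 groups overlapped, and the 3 lowest values were those of libraries 7, 8 and 3, which stood apart in division genes. With Y27 the values were 19428, 26727 and 22837 (libraries 12, 24 and 36), all above the untreated KDEL cells on either gel. With blebbistatin they were 17977, 16456 and 22684 (libraries 10, 22 and 34), and the highest of these was library 34 with its conflicting labels.

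Timp2 (ENSMUSG00000017466, chr11:118301069-118355740), the inhibitor that also takes part in activating Mmp2, had 29148, 29443 and 27940 in KDEL cells on 1 kPa and 24115, 30928 and 31139 on 308 kPa. SUN1L cells had 21813, 30445 and 26831 on 1 kPa and 21456, 29460 and 31171 on 308 kPa. As for Mmp2, the 3 lowest of the 18 values were those of libraries 7, 3 and 8. The Y27 libraries had 33186, 47807 and 39335, above every library of the 4 groups without inhibitor, and the blebbistatin libraries had 28299, 32337 and 33726.

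Mmp14 (ENSMUSG00000000957, chr14:54431604-54441258), the membrane-bound activator of Mmp2, varied least of the 5 abundant members, with a highest value 1.40 times its lowest. KDEL cells gave 7206, 6964 and 7713 on 1 kPa and 7332, 6499 and 6624 on 308 kPa. SUN1L cells gave 7778, 6980 and 7458 on 1 kPa and 6539, 5610 and 6601 on 308 kPa, so that these groups did not overlap. The Y27 libraries gave 6956, 7221 and 6570, and the blebbistatin libraries 6794, 5557 and 5566.

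Timp3 (ENSMUSG00000020044, chr10:86300372-86349506), the inhibitor held in the matrix, had 22084, 27856 and 21311 in KDEL cells on 1 kPa and 30116, 25529 and 16427 on 308 kPa. SUN1L cells had 32262, 23043 and 18410 on 1 kPa and 32066, 20629 and 14476 on 308 kPa. In contrast to Mmp2 and Timp2, libraries 3, 7 and 8 held the next 3 Timp3 values below the highest of the 18. The highest value was that of a Y27 library, with 26275, 40000 and 28688 in this group, and the blebbistatin libraries had 24392, 23839 and 21844.

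Timp1 (ENSMUSG00000001131, chrX:20870166-20874735), a secreted inhibitor, had 4043, 4250 and 5007 in KDEL cells on 1 kPa and 4020, 4328 and 5387 on 308 kPa. In SUN1L cells it had 4372, 4414 and 4228 on 1 kPa and 3272, 3900 and 5086 on 308 kPa. It had 3164, 4200 and 4109 with Y27 and 3029, 3784 and 3521 with blebbistatin. All blebbistatin values lay below all untreated values on 308 kPa.

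Disruption of the LINC complex was compared first. For SUN1L against KDEL on 1 kPa, 0 of 8 members had an unadjusted p under 0.05, against 4.54% of all genes tested, and 0 had groups that did not overlap, against 14.5%. On 308 kPa both counts were again 0, against 2.53% and 4.29%. The median log2 difference of the 8 members was −0.04 on 1 kPa and −0.10 on 308 kPa, and that of all genes tested was −0.0091 and −0.029. For Mmp14 the log2 difference was 0.02 ± 0.11 (SE, n = 3 and 3) on 1 kPa, with a 95% interval from −0.22 to 0.26, and −0.13 ± 0.11 on 308 kPa, with an interval from −0.36 to 0.11. For Mmp2 the intervals were −0.62 to 0.40 and −0.57 to 0.45, and for Timp2 −0.57 to 0.29 and −0.51 to 0.35. Timp1 gave −0.40 to 0.35 and −0.55 to 0.19. None of these intervals reached a 2-fold difference in either direction. Timp3 was less well bounded, with −0.70 to 0.74 and −0.85 to 0.58. Mmp24 and Mmp9, at few read pairs, were not bounded within 2-fold. Mmp24 gave −0.24 (interval −1.67 to 1.20) on 1 kPa and 1.33 (−0.11 to 2.765) on 308 kPa. Mmp9 gave 1.07 (−1.07 to 3.21) and 0.13 (−2.01 to 2.27).

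Rigidity was compared within each cell line. For 308 kPa against 1 kPa in KDEL cells, 1 of 8 members had an unadjusted p under 0.05, against 1.37% of all genes, and 1 had groups without overlap, against 4.78%. This was Mmp24 (ENSMUSG00000027612, chr2:155775342-155818366), a membrane-type MMP best known from neurons. It had 12.01, 7.83 and 17.3 signal units on 1 kPa and 7.57, 3.48 and 1.16 on 308 kPa, where the lowest of the first group was barely above the highest of the second. The log2(value + 1) difference was −1.55 ± 0.65 (limma, unadjusted p = 0.036, adjusted p = 1.00, lower in 3 of 3 runs), and it rested on 0.591 to 8.47 read pairs per library. Without library 32 it was −1.05.

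In SUN1L cells the comparison of 308 kPa with 1 kPa again had 1 of 8 members at an unadjusted p under 0.05, against 1.93% of all genes, and the same member had groups without overlap, against 4.77%. This was Mmp14, with a log2 difference of −0.25 ± 0.11, or 0.843-fold (unadjusted p = 0.043, adjusted p = 1.00, lower in 3 of 3 runs). In KDEL cells the difference of Mmp14 was −0.10 ± 0.11 with overlapping groups. Whether rigidity acted differently in the cell lines was tested by the interaction, in which 0 of 8 members had an unadjusted p under 0.05, against 0.905% of all genes, with 0% called. The interaction of Mmp14 was −0.15 ± 0.15 (unadjusted p = 0.35), and that of Mmp24 was 1.57 ± 0.92 (unadjusted p = 0.12). Mmp24 in SUN1L cells had 17.5, 4.05 and 12.7 on 1 kPa and 5.27, 8.73 and 20.6 on 308 kPa, which overlapped.

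**Figure D3:**
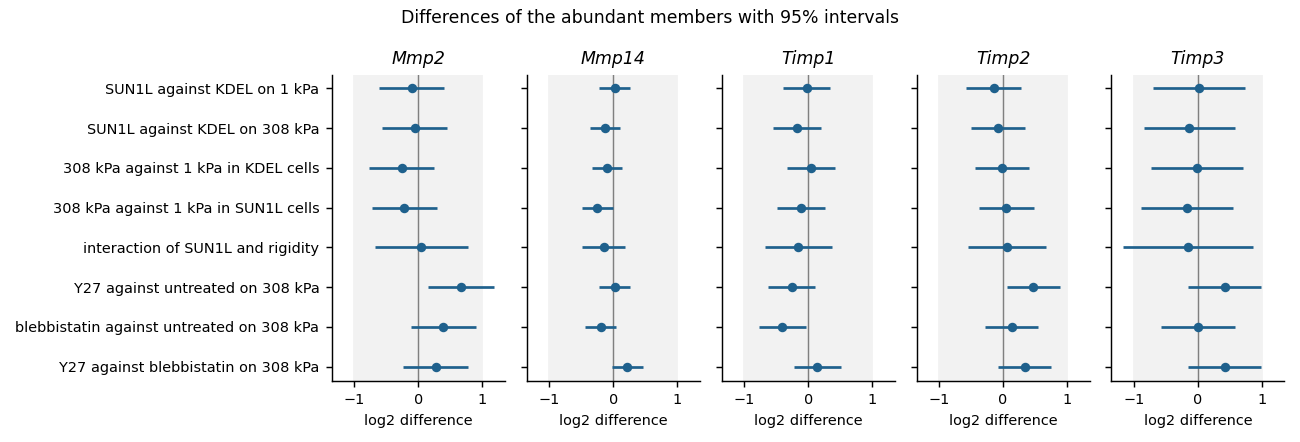
Log2 differences of the 5 abundant members in the 8 comparisons (points) with 95% intervals from limma (lines), on a shaded band that marks differences under 2-fold. The intervals of Mmp2 and Timp2 for Y27 lie above 0, at 0.16 to 1.17 and 0.06 to 0.89.

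The inhibitors of contractility were compared with the same 3 untreated KDEL libraries on 308 kPa, so that the comparisons with Y27 and with blebbistatin are not independent. With Y27, Mmp2 was 1.59-fold the untreated level, a log2 difference of 0.67 ± 0.22 (limma, unadjusted p = 0.017, adjusted p = 0.72). Timp2 was 1.39-fold, with 0.48 ± 0.18 (unadjusted p = 0.030, adjusted p = 0.78). Both genes were higher in 3 of 3 runs, by 0.86, 0.65 and 0.49 for Mmp2 and by 0.46, 0.63 and 0.34 for Timp2 on the log2 scale. These 2 of 8 members compare with 6.05% of all genes that had an unadjusted p under 0.05. Neither passed the correction. Mmp2, Timp2 and Mmp13 had groups without overlap, against 8.57% of all genes. For Mmp14, in contrast, the difference was 0.02 ± 0.10, with an interval from −0.22 to 0.26. Timp3 gave 0.42 ± 0.25 and Timp1 −0.26 ± 0.16, both with overlapping groups. The median over the 8 members was 0.22 and that of all genes 0.0057.

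Untreated library 8, with its low signal of division genes, bore on this result. Without it, the difference for Y27 was 0.45 (unadjusted p = 0.045) for Mmp2 and 0.35 (unadjusted p = 0.085) for Timp2. That of Timp3 went from 0.42 to 0.60 (limma, unadjusted p = 0.046, adjusted p = 0.71). That of Mmp24, at few read pairs, went from 0.67 to 1.16 (limma, unadjusted p = 0.0498, adjusted p = 0.72). In that fit 3 of 8 members had an unadjusted p under 0.05, as did 1107 of 16021 genes. With library 34 counted as a Y27 library, as one of its labels has it, the differences of Mmp2 and Timp2 were 0.66 and 0.42. The summed signals of endothelial, epithelial and fibroblast markers did not overlap between Y27 and untreated libraries, and those of leukocyte markers did. Such sums follow their largest genes, and 8.57% of single genes had groups without overlap. By mean log2 signal, only the fibroblast markers did not overlap, with 14.26 to 14.67 against 13.59 to 14.06 untreated. The endothelial markers had 5.17 to 5.90 against 4.69 to 5.33, and the epithelial markers 3.07 to 3.66 against 2.89 to 3.60. The summed signal of 5 endothelial markers was 1083 to 3991 with Y27 and 391 to 746 in untreated KDEL cells on 308 kPa, most of it from Tek (779 to 3928 with Y27), while Kdr was at the lowest value in 9 of 18 libraries. That of 6 epithelial markers was 372 to 1166 against 241 to 347, of which Krt14 had 74.4 to 872 against 32 to 149 and Cdh1 206 to 293 against 88.0 to 311, with 3 to 4 of the 6 genes at the lowest value in each Y27 library. That of 6 markers of macrophages and other leukocytes was 366 to 508 against 158 to 671, and that of 8 fibroblast markers 503494 to 519531 against 248923 to 406642. The largest fibroblast markers by median over 18 libraries were Col1a2 (127647), Vim (121437) and Col1a1 (77017.5). The part of the cells or genes behind these markers in the differences of Mmp2 and Timp2 was not tested. Fewer cells of a type and less RNA per cell cannot be told apart in such bulk libraries.

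With blebbistatin, Timp1 was 0.755-fold the untreated level, a log2 difference of −0.41 ± 0.16 (unadjusted p = 0.034, adjusted p = 0.89), and was lower in 3 of 3 runs. It was the 1 of 8 members below 0.05 without adjustment, as were 4.21% of all genes, and the 1 of 8 without overlap, as were 7.22%. Without library 34 the difference was −0.42 (unadjusted p = 0.062). Mmp2 gave 0.39 ± 0.22 with overlapping groups, and 0.26 without library 34. Timp2 gave 0.14 ± 0.18, Mmp14 −0.20 ± 0.10 and Timp3 0.0028 ± 0.25. Without library 34 these 3 were 0.08, −0.15 and 0.05, and 0 of 8 members had an unadjusted p under 0.05. With all libraries the members had a median of 0.07, and all genes had 0.

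Of the members, 5 differences given above had an unadjusted p under 0.05 with all libraries, and each went over it when 1 library was left out. The highest such p was 0.15 for Mmp24 and rigidity in KDEL cells (without library 32), 0.16 for Mmp14 and rigidity in SUN1L cells (without library 19) and 0.061 for Mmp2 with Y27 (without library 24). It was 0.10 for Timp2 with Y27 (without library 24) and 0.11 for Timp1 with blebbistatin (without library 10, or without untreated library 32).

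Y27 and blebbistatin were given at different doses, so the direct comparison sets these treatments, not matched doses, side by side. Of the members, 1 of 8 (Mmp13, at the floor) had an unadjusted p under 0.05, against 2.83% of all genes, and 1 (Timp3, higher with Y27) had groups without overlap, against 9.64%. The log2 difference of Timp3 was 0.42 ± 0.25 (unadjusted p = 0.13). Mmp2 gave 0.27 ± 0.22, with an interval from −0.23 to 0.78, and Timp2 gave 0.34 ± 0.18, with an interval from −0.08 to 0.75. By run, Mmp2 was higher with Y27 in 3 of 3 runs, by 0.11, 0.70 and 0.0097 on the log2 scale, and Timp2 in 3 of 3, by 0.23, 0.56 and 0.22. Timp3, Mmp14 and Timp1 were also higher in 3 of 3 runs. None of these 5 passed the correction (limma, adjusted p = 1.00). Without library 34 the differences were 0.41 for Mmp2, 0.39 for Timp2 and 0.37 for Timp3, and 0 of 8 members had an unadjusted p under 0.05, as with this library counted as Y27.

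Mmp9 (ENSMUSG00000017737, chr2:164940780-164955850), the second gelatinase, was measured from 0.5 to 15 read pairs per library. It had 20.6, 33.2 and 1.02 signal units in KDEL cells on 1 kPa, 23.8, 21.6 and 7.84 on 308 kPa, 15.8, 19.3 and 6.45 with Y27 and 13.9, 18.8 and 2.88 with blebbistatin. SUN1L cells had 32.7, 23.8 and 15.6 on 1 kPa and 23.4, 34.8 and 6.42 on 308 kPa. In all 6 groups the lowest value was that of the run from 27 to 36, and all groups overlapped. Timp3 had its lowest value in the same run in 5 of 6 groups. The intervals of Mmp9 spanned 2-fold in both directions in all comparisons but that of blebbistatin with untreated cells, which ran from −2.36 to 0.95. Without library 34 that difference was 0.0095 in place of −0.71. The libraries of the run from 27 to 36 held 15770000 to 17580000 read pairs, within the range of the other runs, and the part of depth or run in the spread of Mmp9 was not tested.

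Mmp13 was read at 0 to 3 read pairs per library, at or below the floor, and no fold change is given. It was at the lowest value in all 3 Y27 libraries and at 2.16, 1.97 and 1.96 in the untreated KDEL libraries on 308 kPa, which is 1 read pair each. With blebbistatin it had 1, 4.03 and 3.31.

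**Figure D4:**
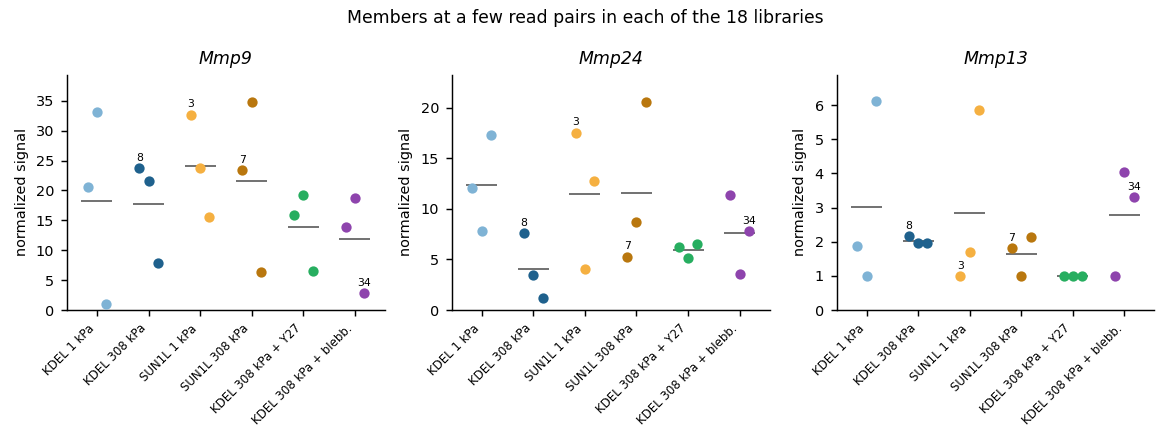
Normalized signal (axes from 0) of the 3 members read at a few read pairs, with 1 point per library and a bar at the mean of each group. The lowest Mmp9 value of each group is its library of the run from 27 to 36, drawn at the right of each group.

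Mmp2 and Timp2 varied together over the libraries. Pearson's r of their log2 signals was 0.88 over the 18 libraries and 0.83 over the 15 without 3, 7 and 8, which share their normalization and include the Y27 libraries at the upper end. Timp3 had an r of −0.03 with Mmp2 over 18 libraries and 0.65 over 15. Mmp14 had an r of −0.13 with Mmp2 and −0.26 with Timp2 over 18 libraries, and 0.08 and −0.10 over 15. These are descriptions without a test.

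**Figure D5:**
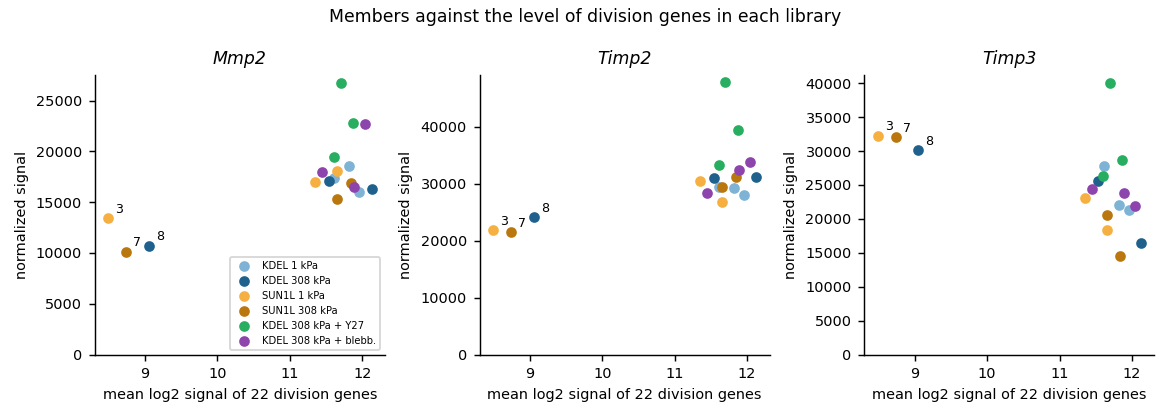
Normalized signal (axis from 0) of Mmp2, Timp2 and Timp3 against the mean log2 signal of 22 division genes, with 1 point per library coloured by group. Libraries 3, 7 and 8 lie apart at 8.49 to 9.05, with the 3 lowest values of Mmp2 and Timp2 and with Timp3 values from 30116 to 32262.

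Of 12512 genes with a mean of at least 10, those most like Mmp2 over the 18 libraries were Cc2d1b (r = 0.95), Emp1 (0.94), a tetraspan membrane protein, and Slc2a6 (0.93), a sugar transporter of the GLUT family. For Timp2 they were Mras (0.95), a small GTPase of the Ras family, Tmem43 (0.95) and Eef2k (0.94), the kinase of elongation factor 2. For Timp3 they were Zcchc24 (0.86), Lrp1 (0.85), a large endocytic receptor, and Atp8b2 (0.85). For Mmp9 they were Gm6871 (0.87), Tmem86a (0.85) and Fryl (0.84), as far as its low counts allow. Without libraries 3, 7 and 8 these values lay between 0.80 and 0.91.

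The wider protease network was read from lists of related genes. Of the other 17 MMP and TIMP genes, 8 could be tested, and 0 were called or had an unadjusted p under 0.05 in any of the 8 comparisons. The highest of them were Mmp11 (mean 1081), a stromelysin that is activated inside the cell by furin, Mmp19 (961) and Mmp28 (175). Of 18 ADAM and ADAMTS proteases, which shed surface proteins or cut proteoglycans, 16 could be tested, and 0 were called. On 1 kPa, SUN1L gave 1 of 16 with an unadjusted p under 0.05, higher, against 4.54% of all genes. On 308 kPa it gave 2, both higher, against 2.53%. Adamts10, named after its values were seen, was in both counts, at 0.49 ± 0.11 (limma, adjusted p = 0.44) and 0.31 ± 0.11. Its groups did not overlap on either gel, against 14.5% and 4.29% of all genes. Rigidity gave 2 of 16 in each cell line, all lower, against 1.37% in KDEL cells and 1.93% in SUN1L cells. With Y27, 6 of these 16 had an unadjusted p under 0.05, all higher, against 6.05% of all genes. The same 6 had groups without overlap, against 8.57% of all genes. Both counts rest on the same values and are not separate results. The median log2 difference was 0.36 over the 16. Named after their values were seen, they included Adam15 (log2 difference 0.74 ± 0.15, adjusted p = 0.62), Adamts2 (0.75 ± 0.17, adjusted p = 0.71), which trims procollagen, and Adamts1 (1.41 ± 0.50, adjusted p = 0.77). The 3 with the highest means, Adam9, Adamts5 and Adam10, were not among them. With blebbistatin 3 of the 16 (Adam17, Adamts12 and Adamts2) had an unadjusted p under 0.05, all higher, against 4.21% of all genes, and 0 were called.

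Of 10 genes of the plasminogen activator system, which can activate MMPs outside the cell, 0 were called and 0 had an unadjusted p under 0.05 in any comparison. Among their leading genes were Anxa2 (mean 44844) and S100a10 (9409), which form a complex that binds plasminogen at the cell surface. Of 15 tested genes for activation, docking and clearance of MMPs, led by Lrp1, Itgb1 and Cd63, 0 were called. Furin, a protease that activates Mmp14, was named after its values were seen: it had a log2 difference of −0.33 ± 0.14 for 308 kPa against 1 kPa in KDEL cells (unadjusted p = 0.039) and −0.34 ± 0.14 in SUN1L cells (unadjusted p = 0.035), with adjusted p = 1.00 in both. It was the 1 of 15 at such a p in each, against 1.37% and 1.93% of all genes. Its groups overlapped in KDEL cells but not in SUN1L cells, where 4.77% of all genes had groups without overlap. With Y27 the 1 of 15 was Sdc1, also named afterwards, at 0.35 ± 0.13 (limma, unadjusted p = 0.033, adjusted p = 0.79), against 6.05% of all genes.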

How the data were processed

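Messenger RNA of 18 libraries in 6 groups of 3 was analysed. The authors aligned paired-end reads with TopHat 2.0 to mm9 and filtered them in AvadisNGS. They deposited 1 normalized signal value per gene and library (trimmed mean of M-values), and the lowest of these values is 1. The positions in the table overlap those of RefSeq GRCm38.p6 for 99.9% of 20148 matched genes and those of the mm9 annotation for 12.1%. Whole reads could not be recovered, so log2(value + 1) was tested with limma 3.58.1 in R 4.3.3 (two-sided, variance trend, 1 mean per group), after tests on simulated data.

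Testing covered the 16021 of 22019 genes that exceeded the lowest value in 3 or more libraries, with the Benjamini-Hochberg adjustment over all of them (Bonferroni for the interaction). SUN1L and rigidity used 12 libraries, and the inhibitors 9. The methods call the samples biological replicates, but the labels do not say whether they were separate cultures, so the p-values measure the spread between these libraries. The members, gene lists and tests were chosen with earlier results of these data known. Named genes are the 10 members, the 3 with the highest mean in each list of proteases, and the 3 most like each of the 4 members that varied most among those with a mean of at least 10. Exceptions are marked, and 1 gene that the rule names is not reported here.

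Library 34 was grouped by its sample characteristics. Alternatives were no filter, a mean of at least 10, pseudocounts of 8 and 0.1, quantile normalization, 18 libraries in 1 fit, no trend, a block on runs, library 34 as Y27 and each library left out. Leaving out libraries 3, 7 and 8 together was chosen after the data were seen. The microRNA libraries were not analysed here.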

Additional observations from a re-analysis of the deposited data

How the results depend on the processing

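The count of called members was 0 in all 8 comparisons and under every alternative run (162 recounts). Of 1126 recomputed log2 differences of 7 members, 1054 kept their sign and 72 did not, and 0 of those 72 belonged to a difference with an unadjusted p under 0.05. The smallest adjusted p of a member was 0.30, for Mmp2 with Y27 without library 32, and over all alternatives it ran from 0.30 to 1.00 for this difference and from 0.32 to 1.00 for Timp2 with Y27. Mmp9 and Mmp24 were read at few read pairs, and Mmp13 is given without fold changes. The causes of the sign changes were not tested.

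With libraries 3, 7 and 8 left out, the sign changed for SUN1L on 1 kPa in Mmp14 (−0.014), Mmp2 (0.020) and Timp3 (−0.20), for rigidity in Timp2 in KDEL cells (0.11) and Timp1 in SUN1L cells (0.044), and for the interaction in Mmp2 (−0.069) and Timp2 (−0.022). Under quantile normalization it changed for Timp1 with SUN1L on 1 kPa (0.046), Timp2 with rigidity in SUN1L cells (−0.025), Mmp2 in the interaction (−0.054), Mmp14 with Y27 (−0.033) and Timp3 with blebbistatin (−0.084). With library 34 as Y27 it changed for Mmp14 with Y27 (−0.057), Mmp9 with blebbistatin (0.0095) and Mmp9 between the inhibitors (−0.79). With a pseudocount of 8 it changed for Mmp24 with rigidity in SUN1L cells (−0.0025).

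When each library was left out in turn, the ranges that crossed 0 were as follows. For SUN1L on 1 kPa they were −0.014 to 0.064 for Mmp14, −0.19 to 0.020 for Mmp2, −0.62 to 0.32 for Mmp24, −0.18 to 1.86 for Mmp9, −0.089 to 0.065 for Timp1 and −0.20 to 0.21 for Timp3. For SUN1L on 308 kPa they were −0.27 to 0.16 for Mmp2, −0.35 to 0.79 for Mmp9, −0.20 to 0.087 for Timp2 and −0.43 to 0.14 for Timp3. For rigidity in KDEL cells they were −0.67 to 1.37 for Mmp9, −0.082 to 0.13 for Timp1, −0.078 to 0.11 for Timp2 and −0.20 to 0.23 for Timp3. For rigidity in SUN1L cells they were −0.36 to 0.0066 for Mmp2, −0.54 to 0.41 for Mmp24, −0.84 to 0.30 for Mmp9, −0.28 to 0.038 for Timp1, −0.082 to 0.21 for Timp2 and −0.47 to 0.10 for Timp3. For the interaction they were −0.17 to 0.27 for Mmp2, −1.73 to 0.31 for Mmp9, −0.066 to 0.23 for Timp2 and −0.45 to 0.12 for Timp3. For Y27 they were −0.012 to 0.075 for Mmp14 and −0.80 to 0.11 for Mmp9, for blebbistatin −1.18 to 0.0095 for Mmp9 and −0.25 to 0.19 for Timp3, and between the inhibitors −0.59 to 0.14 for Mmp24 and −0.33 to 0.84 for Mmp9.

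Replicates carry no number in the labels, and pairing was not assumed. Libraries of the same run deviated together from their group means, with a correlation over 0.1 in 43 of 45 pairs (median 0.40, lowest 0.087), as a hint from the data. With a replicate block on the runs, 0 members were called in each comparison, and the adjusted p with Y27 was 0.38 for both Mmp2 and Timp2. The members with an unadjusted p under 0.05 (limma) went from 1 to 3 between the inhibitors (Mmp13 was joined by Timp2 and Mmp14), from 2 to 3 with Y27 (Timp1 was added) and from 1 to 2 with blebbistatin (Mmp9 was added). All genes at that p went from 453 to 828, from 970 to 1683 and from 674 to 1213 in the same comparisons.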

Other observations

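Some MMP genes other than the members behaved differently in libraries 3, 7 and 8. Mmp11 had signals of 2432, 1979 and 2224 in these libraries and 559 to 1168 in the other 15, so that its 3 highest values were theirs. Mmp23, which the rule for named genes does not cover, had 105, 77.0 and 55.5 against 17.7 to 47.0. Mmp19 had 1177, 1110 and 1243, within the range of 303 to 1550 of the others. These libraries come from 3 groups and were singled out by genes of cell division, and no test was made between them and the rest.

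Among 18 matrix proteins that MMPs can cut, all of them tested, 4 had an unadjusted p under 0.05 and a higher value with Y27, and 1 a lower value, with 0 called, against 6.05% of all genes at such a p. The list's median log2 difference was 0.36 with Y27 and 0.17 with blebbistatin, against 0.0057 and 0 for all genes. Of 21 tested genes for AP-1, NF-kB, ETS and RUNX factors and interleukins that bear on MMP genes, 1 had an unadjusted p under 0.05 in each direction with Y27, with a median of 0.06 and 0 called. For 308 kPa against 1 kPa in SUN1L cells, 3 of the 21 were lower at such a p, against 1.93% of all genes. There 3 had groups without overlap, against 4.77%, and the median was −0.09 with 0 called.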
